A study of Homo sapiens with 44 samples.

Results

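SOCS1, SOCS2, SOCS3 and CISH encode suppressors of cytokine signalling, small SH2-domain proteins that are induced by cytokines and then dampen the JAK kinases and receptors that induced them. Cytokine receptors of this kind act through JAK kinases and STAT transcription factors, and the SOCS genes are classical STAT targets, and each is induced by its own set of cytokines. RMI2 encodes a subunit of the BLM helicase complex and has no known part in this feedback. It is treated here because SOCS1 lies inside its annotated span, on the opposite strand, in GENCODE v44. The name of RMI2 is attached to many peaks of the SOCS1 locus. Chromatin accessibility at these loci was measured by ATAC-seq, in which a transposase cuts open DNA, in Ccd18-Co, a fibroblast line from human colon. The members were all 171 peaks of 407383 whose deposited gene name was SOCS1 (9 peaks), RMI2 (94), SOCS2 (12), SOCS3 (48) or CISH (8). They were chosen by gene name, with earlier results of these data in view, and the genes were selected on measured values. These were the difference of a SOCS3 peak with oncostatin M (OSM) and of an RMI2 peak with IL-13, each against unstimulated cells. Every value of the OSM and IL-13 comparisons is therefore given as a description, without a test. The values of unstimulated cells were part of this choice too. At SOCS3 and RMI2 peaks, tests of other cytokines against unstimulated cells are therefore not independent of it.

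The 44 libraries formed 11 groups of 4. One group was unstimulated, and the others received IL-1β at 0.1 ng/ml or TNF, OSM, IL-6, IL-22, IL-13, IFNα, IFNγ, TGF-β1 or IL-17A at 10 ng/ml each, for a day after serum starvation. All libraries came from this single line, and nothing in the labels says whether replicates were separate cultures, so p-values measure the spread between these libraries, which may be technical. In such bulk libraries, a peak open in fewer cells and a peak less open in each cell cannot be told apart. Values are coverage per Mb, meaning bases of read coverage over a peak per Mb of coverage in all peaks, after a composition factor per library. Differences were taken after adding 0.5 and going to log2, so changes of low peaks are understated. A peak was called raised or lowered where limma's adjusted p-value over all 407176 tested peaks was under 0.05.

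Library depth ran from 148.8 to 823.1 Mb of coverage, so that 3 read equivalents were worth between 0.274 and 1.52 coverage per Mb, and such floors cover counting error only. Of 11 fibroblast markers, 11 had a peak within 1000 bases of a start site (COL3A1 at a median of 9.25 coverage per Mb over the libraries), against 4 of 7 leukocyte, 3 of 5 epithelial and 4 of 4 endothelial markers, and the medians of these peaks ran from 1.45 to 9.25 for fibroblast, 0.455 to 8.03 for leukocyte (PTPRC the highest, CD14 at 4.94), 0.402 to 4.44 for epithelial and 0.397 to 1.84 for endothelial markers. An open promoter does not show that the gene is expressed. The shallowest library, the library labelled IL-6 replicate 4, stood apart at these loci. It had 77.19 coverage per Mb at the CISH promoter against 36.93, 37.43 and 43.23 in the other IL-6 libraries, and 14.26 at the RMI2 peak chr16:11249575-11250075 against 2.678, 2.353 and 4.524. It lay above the IL-13 libraries at the first peak and just below them at the second (58.15 to 67.48 and 15.54 to 21.7), and IL-6 results are therefore given with and without it.

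Some of the peaks on which the results turn are shown here by part of their sequence, in hg38, with deposited coordinates read as counting from 1. Capitals mark matches to 3 motifs, searched on both strands: TTCNNNGAA, the spaced palindrome that most STAT dimers bind (GAS), the same palindrome with 4 bases between TTC and GAA, the wider spacing preferred by STAT6, and GAAA followed by any 2 bases and GAAA, the core of the interferon-stimulated response element (ISRE). A match is a description of letters and not evidence of binding. The first 2 runs lie in the CISH promoter peak chr3:50611874-50612374 and are shown because this peak held 4 GAS matches.
CISH promoter, minus strand, chr3:50611876-50611905: ggTTCTAGGAAgacgctgcTTCCGGGAAgg
CISH promoter, minus strand, chr3:50611991-50612020: ccgttTTCCTGGAAagTTCTTGGAAatctg

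A GAS match was present in 17.2% of all peaks, but only 50 of 407383 peaks (0.0123%) had 4 or more. The SOCS3 promoter peak held 2 matches, and 1 match of the STAT6 spacing was present in the SOCS3 peak with the widest spread between groups, a spacing found in 14.4% of all peaks.

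The SOCS1 promoter held 1 ISRE match and an upstream SOCS1 peak 2 overlapping ones, a motif present in 9.13% of all peaks (2 or more in 0.867%). The RMI2 peak with the widest spread between groups had no match to any of the 3 motifs in its full length.
SOCS1 promoter, minus strand, chr16:11256296-11256595: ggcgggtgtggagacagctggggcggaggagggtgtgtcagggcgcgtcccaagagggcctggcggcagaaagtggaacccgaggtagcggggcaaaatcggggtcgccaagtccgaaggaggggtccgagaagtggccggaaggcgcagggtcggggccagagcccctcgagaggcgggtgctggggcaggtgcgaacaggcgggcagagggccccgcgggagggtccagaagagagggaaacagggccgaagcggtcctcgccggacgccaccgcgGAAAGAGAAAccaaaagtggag
RMI2 peak, plus strand, chr16:11250523-11250822: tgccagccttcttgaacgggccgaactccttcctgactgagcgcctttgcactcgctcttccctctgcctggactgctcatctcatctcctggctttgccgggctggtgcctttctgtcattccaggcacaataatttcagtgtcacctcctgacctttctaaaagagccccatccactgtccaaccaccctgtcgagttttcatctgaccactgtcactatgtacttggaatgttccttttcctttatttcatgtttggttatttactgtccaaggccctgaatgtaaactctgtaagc

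Over all 171 members, GAS matches were present in 22.2%, the STAT6 spacing in 14.6% and ISRE in 8.19%, near the shares over all peaks. An NF-κB motif, GGG, any 2 bases and TTTCC, was present in 5.85% against 3.71%, and TGANTCA, the AP-1 motif, in 21.1% against 25.7%. All searches covered both strands.

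CISH, whose product binds receptor chains and is a classical target of STAT5, had 8 peaks, and GENCODE v44 places all of them inside MAPKAPK3, the neighbour that starts close by on the opposite strand. The peak nearest its start, 350 bases upstream, has its centre in a UTR exon of MAPKAPK3, so the openness of the 2 promoters cannot be told apart there. It was the most accessible SOCS family promoter, at 31.39, 34.44, 37.83 and 38.02 coverage per Mb in the unstimulated libraries. The IL-13 libraries had 66.24, 66.67, 58.15 and 67.48, all above every unstimulated library, a difference of 0.86 ± 0.10 (SE) on the log2 scale. The OSM libraries had 47.3, 49.7, 50.27 and 48.18, also without overlap and at a difference of 0.46 ± 0.10, which under a correction for base composition was 0.24.

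The order of the CISH promoter was IL-13 (64.64 ± 4.36, SD, n = 4), OSM (48.86 ± 1.37), IL-6 (48.69 ± 19.2, or 39.19 ± 3.5 without the library labelled IL-6 replicate 4), IFNγ (41.59 ± 2.11), IL-22 (40.44 ± 0.931), IL-17A (37.54 ± 4.45), unstimulated (35.42 ± 3.15), IFNα (35.29 ± 3.92), TNF (31.29 ± 2.02), IL-1β (30.06 ± 2.02) and TGF-β1 (28.33 ± 0.336). None of the 8 tested cytokines was called here, and from OSM down each group overlapped the next. Of the other 3 IL-6 libraries none reached the lowest OSM library. The IL-6 difference from unstimulated was 0.39 (adjusted p-value 0.0735, limma) and 0.14 without that library (adjusted p-value 0.964, limma).

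Further upstream of CISH, 1 peak was raised with IL-1β and 1 lowered with TGF-β1, and another had its highest values with IL-13. The peak 887 bases upstream (chr3:50612411-50612911) had 7.505, 7.008, 6.105 and 7.019 coverage per Mb with IL-13 against 3.684, 2.276, 3.756 and 1.903 unstimulated, a difference of 1.16 ± 0.28. The peak 15850 bases upstream (chr3:50627374-50627874), which held 3 AP-1 matches, was raised with IL-1β, at 9.173, 6.315, 11.97 and 9.857 against 3.944, 2.16, 5.538 and 4.677 (1.13 ± 0.26, adjusted p-value 0.00111, limma). A peak over a coding exon of MAPKAPK3, 5821 bases upstream, was lowered with TGF-β1, at 3.207, 0.6832, 1.576 and 2.837 against 3.734, 6.019, 4.539 and 4.518 (-1.13 ± 0.28, adjusted p-value 0.00398, limma, and 0.125 without TGF-β1 replicate 2). The groups did not overlap at any of these 3 peaks.

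SOCS1, whose product inhibits JAK kinases directly and is the main brake on interferon signalling, was raised at its start with 5 of the 8 tested cytokines. The peak over its first exon, 237 bases downstream of the start (chr16:11255717-11256217, in a UTR), was called for those 5, and no other member was called for more than 3 of the 8. It had 13.76, 15.24, 14.35 and 10.18 coverage per Mb unstimulated. The order of group means was IL-13 (28.55 ± 6.97, SD, n = 4), IL-6 (24.01 ± 3.17), IL-22 (23.53 ± 3.39), IFNγ (22.96 ± 1.12), OSM (22.47 ± 4.67), IFNα (21.14 ± 4.71), IL-17A (19.93 ± 5.61), IL-1β (19.03 ± 3.57), TNF (17.92 ± 1.73), unstimulated (13.38 ± 2.22) and TGF-β1 (11.39 ± 3.03). Each of these groups overlapped the next in the order except TNF and unstimulated. GENCODE v44 places this peak, like every other SOCS1 peak, inside RMI2 on the opposite strand.

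The tested rises of this peak were 0.83 ± 0.14 with IL-6 (adjusted p-value 0.000524), 0.80 ± 0.14 with IL-22 (0.00128), 0.77 ± 0.14 with IFNγ (3.31e-05), 0.63 ± 0.14 with IFNα (0.00438) and 0.49 ± 0.14 with IL-1β (0.024), all by limma. The differences with IL-13 and OSM were 1.05 and 0.72. In the other 3 IL-6 libraries the level was 22.74 ± 2.33 (SD, n = 3) and the peak was still raised, by 0.75 (adjusted p-value 0.0147, limma), the only member called for IL-6 without that library. The peak has 79.6% G and C, and under a correction for base composition the values with IL-1β and IL-22 were 0.34 and 0.48 and no longer past the threshold, whereas those with IL-6, IFNα and IFNγ were, and the OSM value was 0.29. The IL-1β call was also lost in 6 other settings, and the IFNα call without IFNα replicate 1 or unstimulated replicate 4.

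Upstream of the SOCS1 start, 2 peaks rose with IFNγ, the type II interferon, and were not called with IFNα, a type I interferon. The peak 342 bases upstream, which holds the ISRE match shown above and was singled out after its values were seen, had 21.09, 19.74, 19.86 and 21.45 coverage per Mb with IFNγ against 14.82, 10.15, 15.02 and 12.84 unstimulated (0.63 ± 0.15, adjusted p-value 0.00414, limma). It had 17.73, 19.45, 22.34 and 20.43 with IL-13, also above every unstimulated library, and 14.07, 15.76, 11.98 and 16.92 with IFNα, overlapping the unstimulated libraries, and IFNα minus IFNγ was -0.48 ± 0.15 (adjusted p-value 0.0949, limma). The peak 3042 bases upstream, in an intron of RMI2 and with the overlapping ISRE matches, was close to the floor unstimulated (0.3557, 0.397, 1.779 and 0.6963) and had 3.55, 5.665, 3.413 and 3.32 with IFNγ.

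That upstream rise was 1.87 ± 0.40 (adjusted p-value 0.000638, limma). The IFNα libraries had 1.792, 0.7847, 1.259 and 0.6912, and the direct difference of IFNα minus IFNγ was -1.48 ± 0.40 (adjusted p-value 0.0265, limma). The call of the rise was lost with a pseudocount of 0.1. The direct difference missed the threshold in 6 of 22 other settings (adjusted p-values from 1.07e-13 to 0.325), 5 of which left out a library, IFNα replicate 2 or 4 or IFNγ replicate 1, 2 or 3. The remaining SOCS1 peaks had no call. Among them the peak 1221 bases upstream had its highest mean with IL-13, 13.02 ± 1.32 against 8.15 ± 0.849 unstimulated (SD, n = 4).

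**Figure D1:**
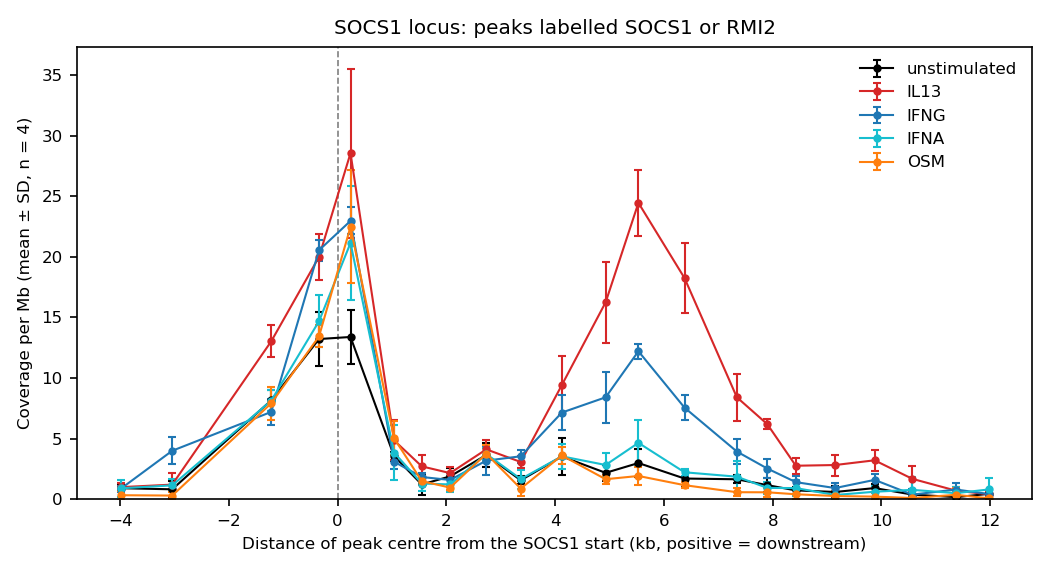
Coverage per Mb (mean ± SD of 4 libraries) of each peak labelled SOCS1 or RMI2, against the distance of its centre from the SOCS1 start (dashed line, kb, positive is downstream of SOCS1), for 5 of the 11 groups. The block from about 4 to 8 kb downstream is highest with IL-13, followed by IFNγ, and lies near or below the unstimulated level with OSM; the peak just downstream of the start is above unstimulated in all 4 stimulated groups shown.

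The largest differences at this locus were in peaks labelled RMI2. Of the 94 RMI2 peaks, 10 had their centre within 10 kb of the SOCS1 start, 5 lay inside an RMI2 transcript and 38 inside CLEC16A, the gene on the other side. IL-13 values brought RMI2 into view, and the share of all peaks with these groups so far apart was not counted. As a description, every IL-13 library lay above every unstimulated one in all 10 peaks within 10 kb. Of them, 9 lay from 4123 to 9874 bases downstream of the SOCS1 start, around an annotated RMI2 start at position 11249619. The tenth, nearest to SOCS1 at 3367 bases, had 3.06 ± 0.498 coverage per Mb with IL-13 against 1.55 ± 0.34 (SD, n = 4). Its highest mean was with IFNγ, at 3.53 ± 0.52 (SD, n = 4), without a call.

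The peak at this RMI2 start (chr16:11249575-11250075) had 0.8988, 1.525, 2.505 and 1.854 coverage per Mb unstimulated. It had 15.54, 21.7, 16.24 and 19.49 with IL-13, a difference of 3.13 ± 0.29 from unstimulated, and 6.976, 9.02, 6.788 and 7.398 with IFNγ, a rise of 1.92 ± 0.29 (adjusted p-value 1.58e-07, limma). With IFNα it had 2.38, 1.96, 2.501 and 2.007, and IFNα minus IFNγ was -1.57 ± 0.29 (adjusted p-value 0.000122, limma). IL-13 and IFNγ each lay apart from all unstimulated libraries and from each other, while IFNα overlapped unstimulated. The unstimulated libraries were part of the choice of RMI2, so p-values against them at RMI2 peaks are not independent of that choice.

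The order of group means at this RMI2 start was IL-13 (18.24 ± 2.88, SD, n = 4), IFNγ (7.545 ± 1.02), IL-6 (5.953 ± 5.62, or 3.19 ± 1.17 with 3 libraries), TNF (3.235 ± 1.20), IL-17A (3.143 ± 0.873), IL-22 (2.299 ± 0.725), TGF-β1 (2.22 ± 1.16), IFNα (2.212 ± 0.269), IL-1β (1.805 ± 0.769), unstimulated (1.696 ± 0.669) and OSM (1.148 ± 0.26). Apart from IL-13, each group overlapped the next in this order, and IFNγ overlapped IL-6 only through the library labelled IL-6 replicate 4.

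The next peak towards SOCS1 (chr16:11250423-11250923) was the most accessible of the block with IL-13, at 22.14, 22.2, 25.94 and 27.51 coverage per Mb against 3.002, 4.2, 3.276 and 1.427 unstimulated (2.91 ± 0.26). It had 12.85, 12.07, 12.5 and 11.38 with IFNγ (1.94 ± 0.26, adjusted p-value 1.25e-09, limma). It also had the only fall in the block, with TGF-β1, at 0.7753, 0.8644, 1.582 and 1.318 (-1.05 ± 0.26, adjusted p-value 0.00492, limma). The TGF-β1 libraries overlapped the lowest unstimulated library, and the call was lost without unstimulated replicate 2 and with voom weights.

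The third of these peaks (chr16:11251026-11251526), with 1 ISRE match, followed the same order, at 16.24 ± 3.32 with IL-13, 8.40 ± 2.09 with IFNγ, 2.81 ± 0.979 with IFNα and 2.17 ± 0.636 unstimulated (SD, n = 4). Its IFNγ rise was 1.74 ± 0.29 (adjusted p-value 3.31e-06, limma), and IFNα minus IFNγ was -1.45 ± 0.29 (adjusted p-value 0.000594, limma). The peak 4123 bases from SOCS1 rose with IFNγ from 3.52 ± 1.54 to 7.14 ± 1.47 (SD, n = 4; 0.99 ± 0.27, adjusted p-value 0.0191, limma), and IFNα minus IFNγ was -0.94 (adjusted p-value 0.0435, limma). On the far side of the RMI2 start, the peaks 7341 and 7901 bases downstream had means of 8.40 and 6.18 with IL-13 against 1.64 and 1.15 unstimulated, and no call with IFNγ, where they had 3.92 and 2.52.

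With IL-6, the peaks at chr16:11249575-11250075 and chr16:11250423-11250923 were past the threshold over all 4 libraries (1.27 and 1.20, adjusted p-values 0.0292 and 0.0157, limma). Without the library labelled IL-6 replicate 4 they had 3.19 ± 1.17 and 4.80 ± 0.348 coverage per Mb (SD, n = 3), with differences from unstimulated of 0.76 and 0.68 (adjusted p-values 0.815 and 0.789, limma). With IL-17A the second of them had 7.987, 5.514, 6.474 and 5.225, above every unstimulated library but not called.

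Farther away lay peaks inside CLEC16A, between 120612 and 155786 bases from the SOCS1 start. Of these, 7 had a higher value with IL-13 at an adjusted p-value under 0.05 (limma), beside 0.73% of all tested peaks. This count is a description and not a test, since IL-13 values brought RMI2 into view. The 7 differences ran from 0.60 to 1.63. The largest was at chr16:11135342-11135842, with 13.85 against 4.16 coverage per Mb, and it was lowered with TGF-β1 to 2.16 (-0.84 ± 0.25, adjusted p-value 0.0273, limma). A peak at chr16:11129223-11129723 went in both directions by cytokine. It had 9.16 with IL-13 against 3.28 unstimulated and was lowered with IL-1β (1.20), TNF (1.11) and IFNα (1.18), by -1.23 ± 0.32, -1.26 ± 0.32 and -1.28 ± 0.32 (adjusted p-values 0.00854, 0.00534 and 0.018, limma).

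SOCS3, whose product binds the gp130 receptor chain shared by IL-6 and OSM and is a classical STAT3 target, had 48 peaks, of which 13 ran consecutively from its promoter to 8354 bases downstream of its start. As a description, every OSM library lay above every unstimulated library in each of these 13. OSM values brought SOCS3 into view, and the share of all peaks with these groups so far apart was not counted. The largest difference was not at the promoter but 4930 bases downstream, in intergenic DNA (chr17:78354897-78355397). This peak had 1.843, 1.201, 1.746 and 2.409 coverage per Mb unstimulated and 25.99, 27.25, 19.74 and 21.49 with OSM, a difference of 3.40 ± 0.32. No library of another group exceeded 4.384.

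Its neighbours 4203 and 5632 bases downstream followed. The first (chr17:78355624-78356124) had 30.55, 22.02, 23.72 and 29.22 coverage per Mb with OSM against 4.975, 4.827, 4.245 and 3.037 unstimulated, a difference of 2.5 ± 0.27. The second (chr17:78354195-78354695), with 1 GAS match, had 13.82, 15.97, 14.72 and 14.79 against 1.74, 1.58, 2.936 and 1.559, a difference of 2.68 ± 0.33. The other 10 differences ran from 0.39 ± 0.09 at the most accessible peak, 8354 bases downstream, where OSM had 61.98 against 47.27, to 1.58 ± 0.18, with 0.91 ± 0.14 at the promoter. Over 22 other settings the promoter difference ran from 0.49 to 1.09.

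At the promoter peak (chr17:78359950-78360450) the order of group means was OSM (31.39 ± 4.71, SD, n = 4), IL-22 (22.29 ± 2.75), IFNγ (21.35 ± 2.03), IL-17A (20.59 ± 2.55), IL-6 (20.58 ± 3.05, or 21.37 ± 3.19 with 3 libraries), IL-13 (19.56 ± 4.08), IFNα (19.15 ± 4.61), IL-1β (18.65 ± 3.08), unstimulated (16.5 ± 3.00), TGF-β1 (14.96 ± 3.43) and TNF (14.41 ± 1.11). The OSM libraries lay above all others, and each of the other groups overlapped its neighbour. IL-6, which signals through the same gp130 chain, was not called at any SOCS3 peak, and at the promoter its difference from unstimulated was 0.32 (adjusted p-value 0.485, limma). Without the library labelled IL-6 replicate 4 this difference was 0.37 (adjusted p-value 0.789, limma), and again no SOCS3 peak was called.

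OSM and IL-6 were also set against each other directly. The difference of OSM minus IL-6 was 3.10 ± 0.32 at the peak 4930 bases downstream, where IL-6 had 2.353, 1.698, 1.454 and 4.384, and 3.37 without the library labelled IL-6 replicate 4. It was 2.63 ± 0.27 and 3.02 ± 0.33 at the neighbouring peaks (2.54 and 2.38 without that library) and 0.60 ± 0.14 at the promoter (0.54 without it, and 0.40 under the base composition correction). Since these values rest on the OSM libraries that brought SOCS3 into view, they are given without a p-value.

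**Figure D2:**
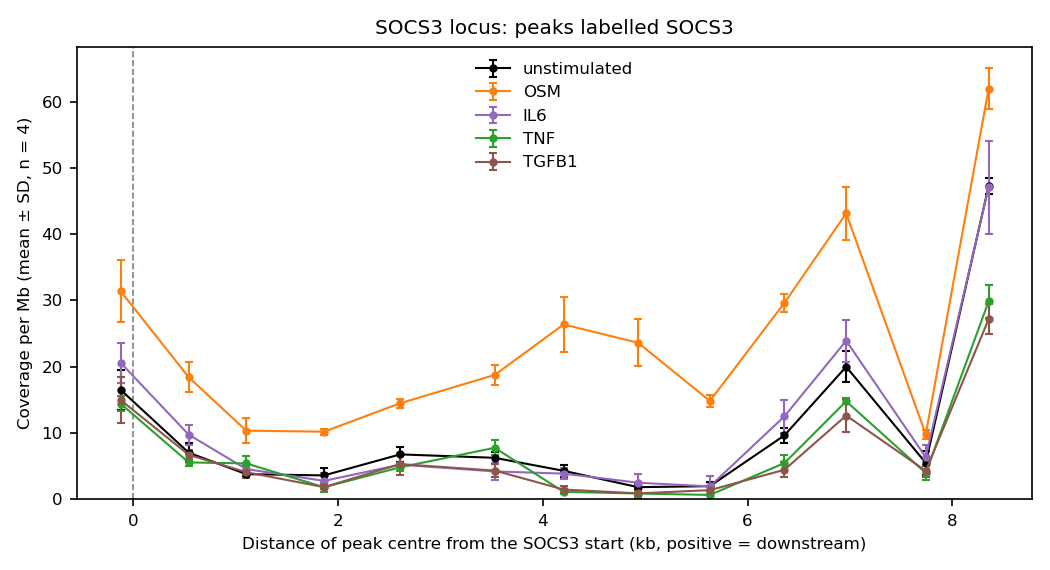
Coverage per Mb (mean ± SD of 4 libraries) of each peak labelled SOCS3 near the gene, against the distance of its centre from the SOCS3 start (dashed line, kb, positive is downstream), for 5 of the 11 groups. The OSM line is the highest at every peak shown, and TNF and TGFB1 lie below unstimulated at the peaks from about 4.2 kb on.

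TNF and TGF-β1, neither of which signals through JAK kinases, had lower values in part of the same downstream series. The peak 4203 bases downstream fell with TNF to 0.6753, 1.212, 1.159 and 1.332 coverage per Mb (-1.58 ± 0.27, adjusted p-value 1.43e-06, limma) and with TGF-β1 to 0.7978, 1.715, 1.363 and 1.896 (-1.31 ± 0.27, adjusted p-value 0.000206, limma, and 0.0666 with voom weights). Both groups lay below every unstimulated library, the lowest of which had 3.037. The peak 6360 bases downstream (chr17:78353467-78353967) was lowered with TNF (5.45 ± 1.17), TGF-β1 (4.43 ± 1.12) and IL-1β (5.28 ± 0.204) from 9.63 ± 1.13 unstimulated (SD, n = 4), by -0.79, -1.06 and -0.80 (adjusted p-values 0.00154, 6.26e-06 and 0.0014, limma).

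The most accessible SOCS3 peak, 8354 bases downstream, had 47.27 coverage per Mb unstimulated, 29.86 with TNF, 27.16 with TGF-β1 and 36.06 with IL-1β (-0.66, -0.79 and -0.39, adjusted p-values 2.21e-09, 9.49e-13 and 0.00208, limma). A more distant peak inside a long noncoding RNA gene, 22469 bases downstream, was raised with IL-1β and TNF. It rose from 7.99 to 19.48 with IL-1β (1.24 ± 0.18, adjusted p-value 2.86e-08, limma) and to 19.26 with TNF (1.22 ± 0.18, adjusted p-value 3.4e-08, limma), had 17.97 with OSM, and rose to 12.91 with IFNα (0.66 ± 0.18, adjusted p-value 0.0461, limma). The IFNα call at this peak was lost with another composition factor. This peak held 1 match each of the GAS, NF-κB and AP-1 motifs. At the promoter, TNF and TGF-β1 were not called. The unstimulated libraries were part of the choice of SOCS3, so p-values against them at SOCS3 peaks are not independent of that choice.

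SOCS2, whose product limits growth hormone signalling through STAT5, had 12 peaks, of which 2 were called, each for 1 cytokine. The peak at its start (chr12:93569555-93570055), which also lies in the antisense gene SOCS2-AS1, was lowered with TGF-β1, at 3.429, 3.418, 3.19 and 2.192 coverage per Mb against 5.039, 6.041, 6.695 and 5.676 unstimulated (-0.85 ± 0.24, adjusted p-value 0.024, limma). The groups did not overlap, and the call was lost without unstimulated replicate 2 or 3 or TGF-β1 replicate 4.

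At the SOCS2 start the other group means ran from 6.59 ± 1.19 with IFNα through 5.86 ± 0.692 unstimulated to 4.01 ± 0.197 with IFNγ (SD, n = 4), each overlapping its neighbour apart from IFNγ and TGF-β1. The more accessible peak 507 bases downstream (chr12:93570071-93570571) had 10.91 ± 1.07 unstimulated and no call, with means between 7.52 with TGF-β1 and 11.52 with IL-1β. A distal peak 50910 bases upstream (chr12:93518654-93519154), with 2 matches of the STAT6 spacing and 1 AP-1 match, was raised with TNF, at 2.991, 5.48, 3.69 and 4.414 against 1.971, 0.5665, 1.709 and 0.8004 (1.46 ± 0.34, adjusted p-value 0.00114, limma).

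**Figure D3:**
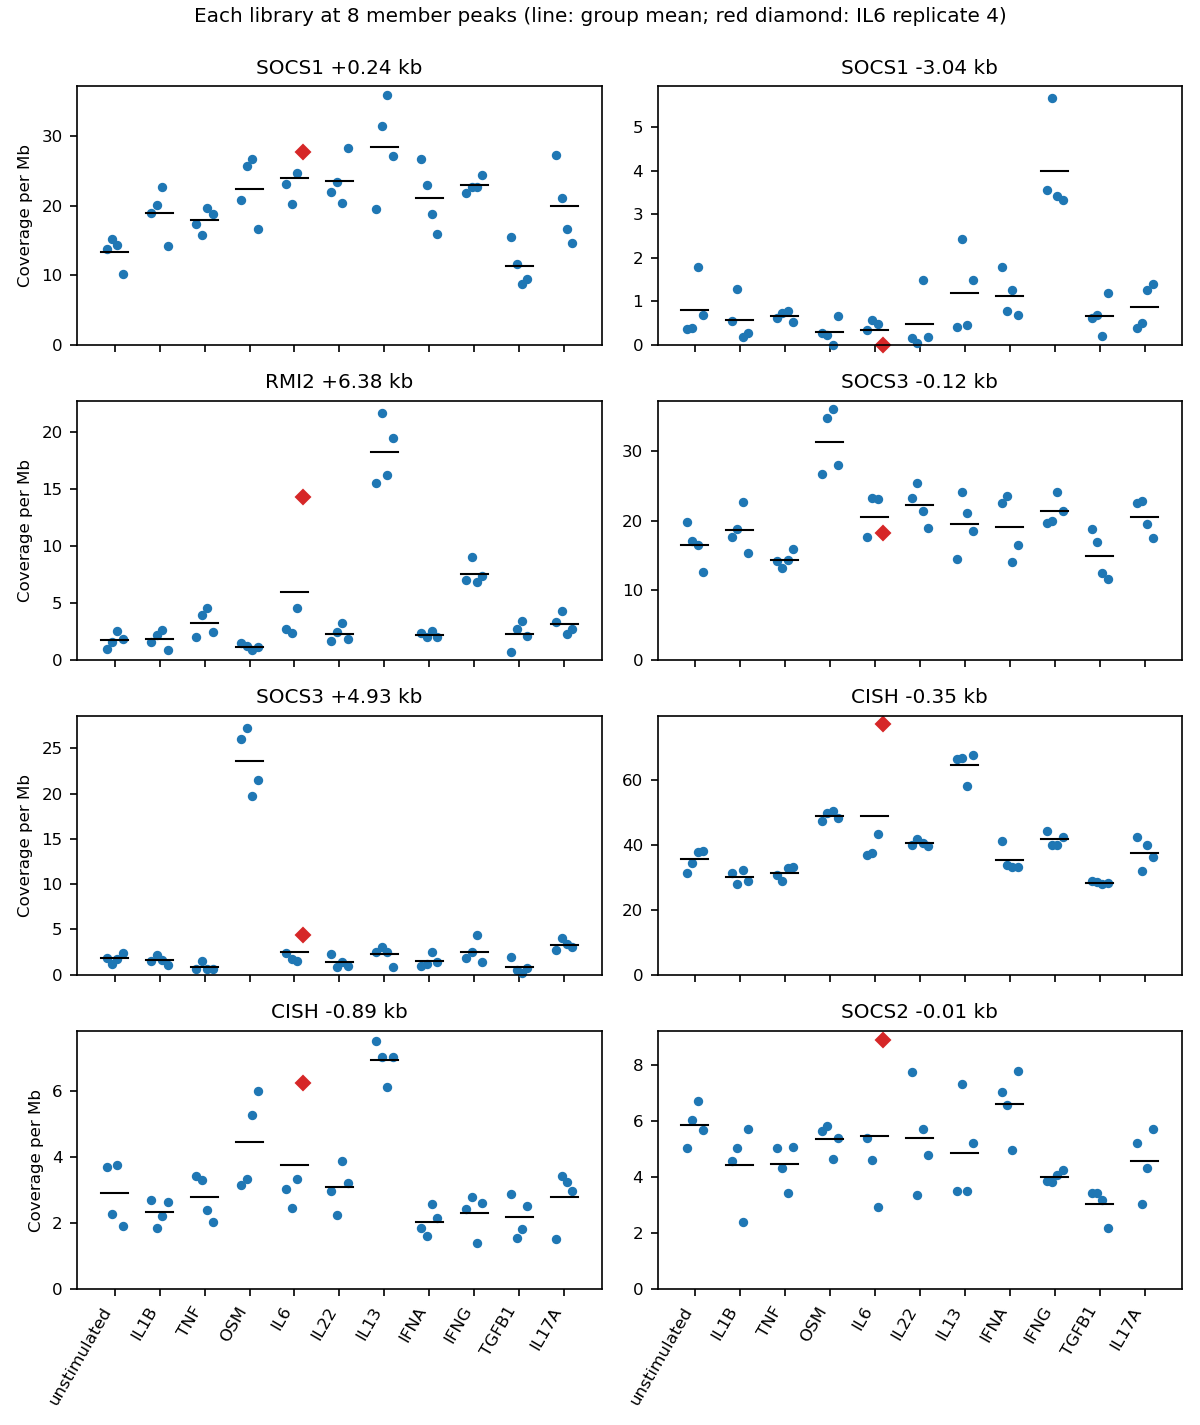
Coverage per Mb of every library at 8 member peaks, by group, named by the distance of the peak's centre from the gene start (RMI2 from the SOCS1 start); points are libraries, lines are group means, and the red diamond is the library labelled IL-6 replicate 4. That library stands at 14.26 in the RMI2 panel and 77.19 in the CISH promoter panel, just below the IL-13 libraries in the first and above them in the second.

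Counted over all members, OSM had 19 raised and 1 lowered peak, beside 1.55% and 1.29% of all tested peaks, and 16 of the 19 belonged to SOCS3. IL-13 had 22 raised peaks beside 0.73% and none lowered beside 0.88% (8 of the members had a lower value at an unadjusted p under 0.05 in limma), and 16 of the 22 belonged to RMI2, 2 each to SOCS1, SOCS3 and CISH. These 2 comparisons are the ones that brought the members into view, so their counts are a description only. IFNγ raised 8 (3 of SOCS1 and 5 of RMI2), 4.68% of the members beside 1.48% of all tested peaks, and lowered none beside 0.275% (2 at an unadjusted p under 0.05 in limma). IFNα raised 2 and lowered 1, beside 0.513% and 0.334% (1 of 2 called raised with another composition factor).

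IL-1β raised 6 and lowered 4 (3.51% and 2.34% of the members, or 3 of 7 called raised with another composition factor), beside 1.72% and 1.79% of all tested peaks. TNF raised 3 (1.75%) and lowered 8 (4.68%), beside 2.67% and 1.69%, and 6 of the 8 lowered belonged to SOCS3. TGF-β1 raised 1 and lowered 10 (5.85%), beside 1.98% and 1.52%, 5 of them of SOCS3 and 3 of RMI2.

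IL-6 raised 3 members beside 0.0427% of all tested peaks and lowered none beside 0.0643% (4 at an unadjusted p under 0.05 in limma). Without the library labelled IL-6 replicate 4, 1 member was raised and 23 of all tested peaks were called. IL-22 raised 1 beside 0.0344% and lowered none beside 0.00221% (9 at an unadjusted p under 0.05 in limma), and IL-17A had no called member beside 0.0329% raised and 0.00688% lowered (10 higher and 4 lower at an unadjusted p under 0.05 in limma). In the direct comparisons, IFNα minus IFNγ had 6 called members, all lower with IFNα, beside 1.17% of all tested peaks, and OSM minus IL-6 had 23, 15 of SOCS3 higher and 8 of RMI2 lower with OSM, beside 2.64%. Without the library labelled IL-6 replicate 4 the latter were 14 and 2. The OSM minus IL-6 counts are a description only, since they rest on the OSM libraries by which SOCS3 was chosen.

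**Figure D4:**
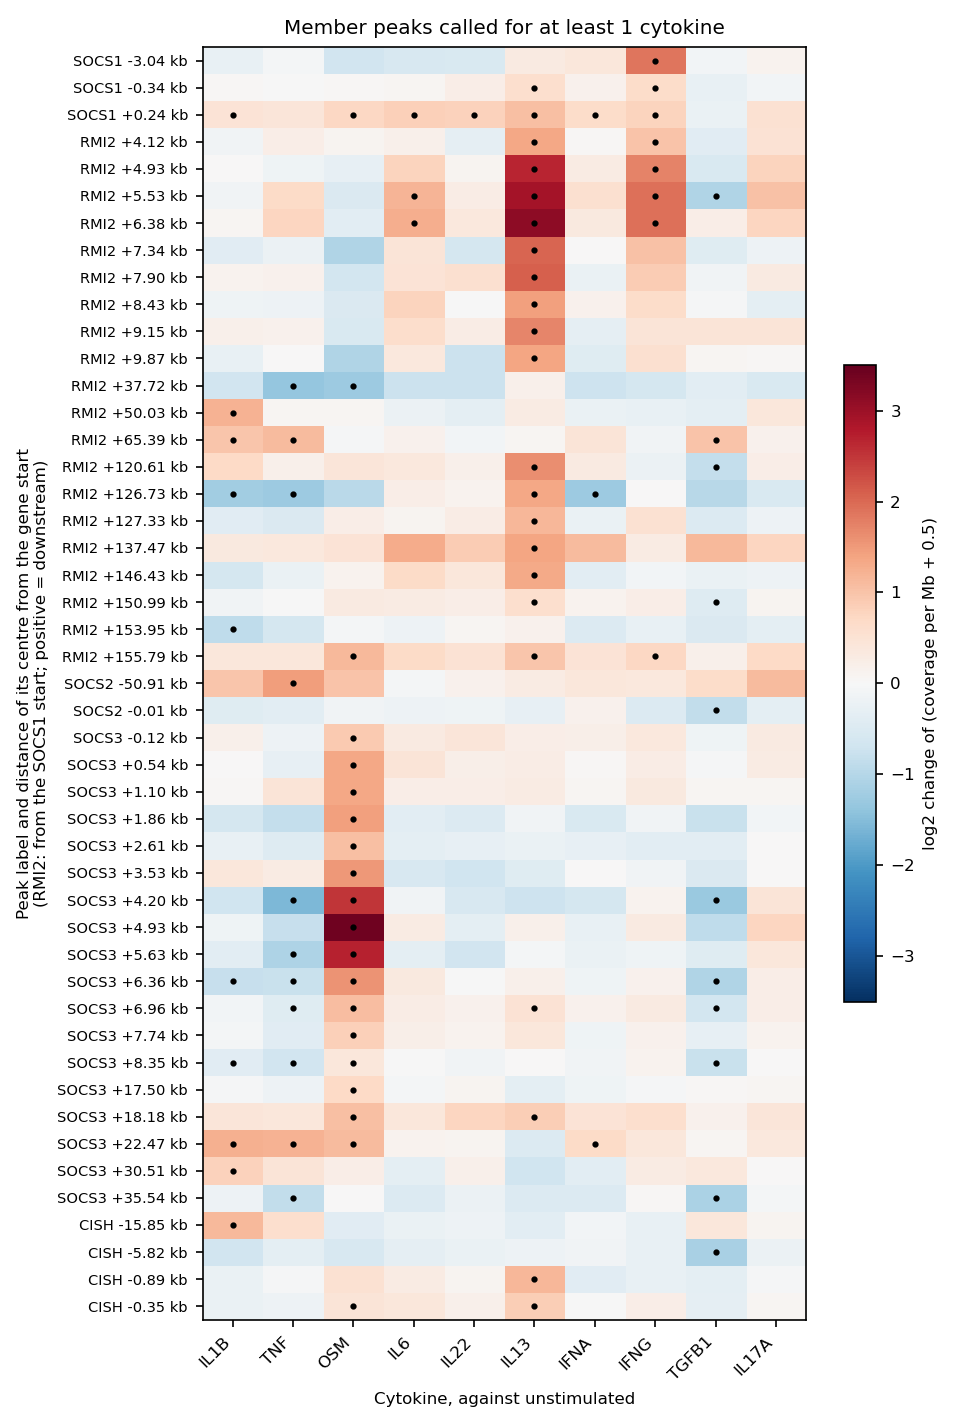
Log2 difference from unstimulated (colour, on the log2(coverage per Mb + 0.5) scale) of the 47 member peaks called for at least 1 cytokine, ordered by gene and by distance from the gene start; a dot marks a call. The SOCS3 peaks near the gene are dotted in the OSM column and the RMI2 peaks 4 to 10 kb from the SOCS1 start in the IL13 column, 4 of them also in the IFNG column.

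Over the 8 tested cytokines, 144 of the 171 members were called for none, 16 for 1, 4 for 2, 6 for 3 and 1 for 5. The same tally was not made over all tested peaks, so it describes the members only. The median difference over all members and over all tested peaks was -0.26 beside -0.22 for OSM, 0.13 beside -0.05 for IL-13 and 0.06 beside 0.15 for TGF-β1. Over the peaks with a log2 mean above 0 alone, the medians of all tested peaks were 0.002 for OSM and 0.01 for TGF-β1. Among members with a mean of at least 1 coverage per Mb (82), the range of group means had a median of 1.22 on the log2 scale, beside 0.94 over 168702 such peaks, which is a description only, since the ranges hold the OSM and IL-13 values that chose the members.

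For the rest of the JAK-STAT pathway, start-site peaks of a list of 40 genes (kinases, STATs, receptors and other negative regulators) were taken, and 39 were tested. Over the list the median difference ran from -0.09 with TGF-β1 to 0.22 with OSM. Over all tested peaks these 2 medians were 0.15 and -0.22, and over peaks with a log2 mean above 0 they were 0.01 and 0.002. With IFNγ, JAK1 (0.62 ± 0.17, adjusted p-value 0.0172, limma) and SH2B3, an adaptor that restrains JAK signalling (0.70 ± 0.20, adjusted p-value 0.0312, limma), were among those raised. With IFNα, USP18, an inhibitor of the type I interferon receptor, was raised from 7.02 ± 1.34 to 12.02 ± 1.72 coverage per Mb (SD, n = 4; 0.74 ± 0.21, adjusted p-value 0.0494, limma). With OSM, as a description, 6 had a higher value at an adjusted p-value under 0.05, beside 1.55% of all tested peaks. Among them were the receptor chains LIFR (0.72, at a peak labelled LIFR-AS1) and IL13RA1 (0.66) and the negative regulator SOCS7 (0.65). With IL-13 there were 2, SOCS7 (0.61) and JAK1 (0.60), beside 0.73% of all tested peaks.

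IL-6, IL-22 and IL-17A each raised 1 of these promoters, in each case JAK1, from 10.14 ± 0.339 to 18.02 ± 1.74, 20.12 ± 4.21 and 18.86 ± 4.14 coverage per Mb (SD, n = 4; adjusted p-values 0.0107, 0.0013 and 0.0072, limma). Of all tested peaks, these cytokines raised 0.0427%, 0.0344% and 0.0329%. The 3 JAK1 calls were lost under a correction for base composition, and that with IL-6 also without the library labelled IL-6 replicate 4 (0.76, adjusted p-value 0.101, limma). IL-1β raised 1 (IL13RA1, 0.66 ± 0.17, adjusted p-value 0.00769, limma), TNF raised IL6ST, the gene of gp130 (0.38 ± 0.11, adjusted p-value 0.0204, limma) and lowered CBLB (-0.33 ± 0.10, adjusted p-value 0.0311, limma), and TGF-β1 lowered SOCS5 (-0.32 ± 0.10, adjusted p-value 0.0454, limma) and STAT2 (-0.25 ± 0.08, adjusted p-value 0.0394, limma). Of all tested peaks, IL-1β raised 1.72%, TNF raised 2.67% and lowered 1.69%, and TGF-β1 lowered 1.52%. Under the same correction these IL-1β, TNF and TGF-β1 calls were lost too, with 1 other gene called for each of the 3, and so were JAK1 with IFNγ and USP18 with IFNα, while SH2B3 with IFNγ was still called. The OSM differences were then 0.29 for LIFR, 0.23 for IL13RA1 and 0.22 for SOCS7, and the IL-13 differences 0.4 for SOCS7 and 0.38 for JAK1.

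The patterns of the members were compared with 74568 other peaks with a mean of at least 1 coverage per Mb and a range of group means of at least 1 on the log2 scale, by Pearson's r of log2 group means over the 11 groups, which share their libraries. The IL-6 means included the library labelled IL-6 replicate 4, and r was not computed without it. The SOCS1 peak 3042 bases upstream was most like peaks labelled SLC2A5 (0.976), IRF1 (0.975), MIR4714 (0.974), MILR1 (0.967) and RAB35 (0.965), and the IRF1 peak, a distal one at chr5:132478849-132479349 near a gene that interferons induce, had itself a range of 3.91. The SOCS3 peak 4930 bases downstream was most like peaks labelled PSKH1 (0.981), CTPS1 (0.973), SNORD17 (0.962), REC8 (0.959) and CLIC5 (0.954).

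The RMI2 peak chr16:11250423-11250923 was most like peaks labelled USP31 (0.96), SLIT2 (0.933), EHD3 (0.924), VAT1L (0.92) and KIAA1257 (0.919), and the CISH peak 887 bases upstream like peaks labelled INPP4A (0.984), ESF1 (0.96), COL12A1 (0.947), INHBE (0.933) and UBA2 (0.933). For the distal SOCS2 peak they were labelled LOC101929268 (0.945), MIR1208 (0.94), LINC01426 (0.938), MEIS1-AS2 (0.936) and PSMD10 (0.926). Peaks with r above 0.9 numbered 206 for the SOCS1 pattern, 41 for SOCS3, 36 for CISH, 22 for SOCS2 and 13 for RMI2.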

How the data were processed

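ATAC-seq was performed on 44 libraries of Ccd18-Co cells. The authors aligned paired-end reads to hg38 with the ENCODE pipeline and deposited a signal, read coverage summed over each of 407383 peaks, unscaled; a read adds up to 75 bases. The study describes a fixed-width peak set called in its single-cell ATAC-seq, and whether the deposited peaks are that set is not given in the sources used here. Deposited peak names hold coordinates, a gene and a class. The members and gene lists were chosen with earlier results of these data known.

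Coverage was divided by the library total in Mb and by a composition factor (trimmed mean of log ratios over peaks covered in every library, trimming 30% of log ratios and 5% of means on either side); log2 of this value plus 0.5 was used. Peaks with a log2 mean of -3 or below (207) were left out. limma 3.58.1 in R 4.3.3 was fitted to all 44 libraries with group as the only term and a mean-variance trend, with Benjamini-Hochberg adjustment over 407176 peaks. Because coverage is not a count, no count model was used. The composition factor was one of several forms looked at, and 7 others are given as alternatives chosen after seeing the data.

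Named in full were, for each gene, the peak nearest its start and up to 4 others with a mean of at least 1 coverage per Mb and the largest range of group means. The replicate numbers were checked as pairs: over 40 pairs of a stimulated library with the unstimulated library of the same number, the correlation of deviations from group means was between -0.012 and 0.032, so they were used as names only. Alternatives covered scaling, base composition, pseudocount, filter, weights, a replicate block, each library left out, and only the 2 groups compared. The labels give no batch. Annotation was GENCODE v44. Some items are not reported here.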

Additional observations from a re-analysis of the deposited data

Results flagged for a closer look

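Among 264 group values of the 24 named peaks, 16 had 1 library far from the other 3, and chance alone marks about 1 group in 20. The library labelled IL-6 replicate 4 gave 5 of these. It had 77.19 coverage per Mb at the CISH promoter against 36.93 to 43.23 in the other IL-6 libraries. At the RMI2 peaks 5531, 4928, 7341 and 7901 bases downstream of the SOCS1 start it had 21.76 against 4.51 to 5.186, 12.79 against 2.217 to 3.431, 7.616 against 1.413 to 1.655, and 10.56 against 0.1762 to 1.712. Its part in the IL-6 results is given by the values without it.

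At the CISH promoter, IL-13 replicate 3 had 58.15 (others from 66.24) and IFNα replicate 1 had 41.14 (others up to 33.82). At the CISH peak 12378 bases upstream, unstimulated replicate 1 had 0.2956 (others from 1.939) and IFNα replicate 3 had 3.805 (others up to 1.532). At SOCS1, 3042 bases upstream, IL-22 replicate 3 had 1.493 (others up to 0.1915) and IFNγ replicate 2 had 5.665 (others up to 3.55), and 1221 bases upstream IL-22 replicate 1 had 9.93 (others up to 7.429). At SOCS3, TNF replicate 2 had 1.489 at the peak 4930 bases downstream (others up to 0.6617), IL-13 replicate 3 had 2.632 at 4203 bases (others up to 2.267), unstimulated replicate 3 had 2.936 at 5632 bases (others up to 1.74) and IFNα replicate 3 had 6.469 at 6360 bases (others from 9.167).

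Between cytokines, IFNα minus IFNγ was past limma's threshold at the RMI2 peaks 6379, 5531 and 4928 bases from the SOCS1 start (-1.57, -1.37 and -1.45 on the log2 scale) and at the SOCS1 peak 3042 bases upstream (-1.48). OSM minus IL-6 was -1.51, -1.64, -1.71 and -1.07 at the RMI2 peaks 7341, 6379, 5531 and 4928 bases away, and -1.01, -1.13, -1.19 and -0.55 without the library labelled IL-6 replicate 4. At the SOCS3 peaks 6360, 5632, 4930 and 4203 bases downstream and at its promoter it was 1.23, 3.02, 3.10, 2.63 and 0.60, and 1.15, 2.38, 3.37, 2.54 and 0.54 without that library. The OSM values are a description, since they rest on the libraries by which SOCS3 was chosen.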

How the results depend on the processing

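Of 50 differences at named peaks, 32 stayed on their side of the threshold in every setting run, 18 lost their call in at least 1, and none changed sign. Member counts moved by over 1.5 times in few settings. IL-6 had 1 called member with a pseudocount of 0.1, sample quality weights or voom weights. IL-22 had 0 with base composition (GC) offsets, IL-17A had 1 with sample quality weights or with only the 2 groups fitted, TNF had 7 with voom weights, and IFNα minus IFNγ had 10 with voom weights. The cause was not tested.

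The counts of pathway promoters were small and moved more. With library totals or median-of-ratios scaling IFNα had 1, and with the latter TGF-β1 had 0. With a pseudocount of 0.1, IL-6, TGF-β1 and IL-17A had 0 and IL-13 and IFNα had 1, and with a pseudocount of 2 IL-1β had 2. With peaks of log2 mean above 0 only, IL-1β had 4 and IFNγ 5. With GC offsets TNF, OSM, IFNα and TGF-β1 had 1 and IL-6, IL-22, IL-13 and IL-17A had 0. With sample quality weights IL-1β had 3, OSM 10, IL-22 2 and IFNγ 5. With voom weights IL-1β had 2, IL-6 and IL-17A 0 and IFNα 5. With loess offsets IL-1β had 3, OSM 2 and TNF, IFNα and TGF-β1 1. With only 2 groups fitted IFNγ had 5 and TGF-β1 1.

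With composition factors over all peaks a library covers, an alternative chosen after seeing the data, pathway counts were 0 for TNF, 13 for OSM, 1 for IL-13 and IFNα and 4 for TGF-β1. In that setting the median OSM difference over all tested peaks was -0.126 in place of -0.216, and 17702 peaks in place of 11587 were called. The raised share of IL-1β members was then 3 of 7 in place of 6 of 10, and that of IFNα 1 of 2 in place of 2 of 3. Over this and 6 further forms of the factor, OSM calls over all tested peaks ran from 15469 to 30722, so the form used gave the fewest, with medians from -0.15 to -0.039. IL-6 calls over all peaks ran from 58 to 308 in place of 436, and called members from 24 to 30 for OSM in place of 20, 14 to 16 for TGF-β1 in place of 11, 5 to 8 for IL-1β in place of 10, and 1 to 3 for IL-6 in place of 3.

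Leaving out 1 library at a time, member counts ranged from 6 to 10 for IL-1β, 8 to 12 for TNF, 18 to 23 for OSM, 16 to 23 for IL-13, 1 to 4 for IL-6, 1 to 1 for IL-22, 1 to 3 for IFNα, 5 to 8 for IFNγ, 8 to 15 for TGF-β1, 0 to 1 for IL-17A, 16 to 25 for OSM minus IL-6 and 3 to 6 for IFNα minus IFNγ. The count fell to 1 for IFNα without unstimulated replicate 1, 3 or 4 or IFNα replicate 1 or 3, to 5 for IFNγ without unstimulated replicate 2, to 1 for IL-6 without unstimulated replicate 4 or the library labelled IL-6 replicate 4, to 6 for IL-1β without IL-1β replicate 2 and to 3 for IFNα minus IFNγ without IFNγ replicate 1, and rose to 1 for IL-17A without IL-17A replicate 4. Pathway counts ranged from 0 to 3 for IL-1β and TNF, 3 to 8 for OSM, 0 to 1 for IL-6 and IL-17A, 0 to 2 for IL-22 and TGF-β1, 1 to 3 for IL-13, 1 to 2 for IFNα and 1 to 5 for IFNγ.

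With the replicate number as a block, member counts were 10 for IL-1β, 11 for TNF, 20 for OSM, 22 for IL-13, 3 for IL-6, 1 for IL-22, 3 for IFNα, 8 for IFNγ, 12 for TGF-β1, 0 for IL-17A, 6 for IFNα minus IFNγ and 24 for OSM minus IL-6, and the replicate numbers were not found to pair libraries. Depth limits the lowest peaks, where a library's value can rest on fewer than 3 reads.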
